A study of Homo sapiens with 4 samples.

Results

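Ribosome assembly and nucleolar factors are the proteins that build ribosomal subunits, and 44 of their genes were followed in HCT116 cells, an established human colon carcinoma line, grown as spheroids or as monolayers. The genes were chosen by name for their role, with earlier results of these data known. Of these, 18 act on the small subunit and 15 on the large subunit. Another 7 belong to small nucleolar ribonucleoproteins (snoRNPs), and 4 organise the nucleolus or drive transcription of ribosomal RNA. Of the 44 genes, 38 had a probe set that carried 1 gene symbol, and all 38 were bright enough to be tested among 8721 genes. BOP1, PPAN, NOP56 and DKC1 had only probe sets shared between several symbols, GNL3 and EBNA1BP2 had none listed, and these 6 genes were not analysed here. Each gene was read from its brightest probe set.

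The data comprised 4 microarrays of total RNA, 2 from independent cultures of untreated HCT116 cells grown as spheroids and 2 from independent cultures of the same untreated line grown as monolayers. Spheroids are multicellular aggregates, and the RNA of a whole spheroid averages its outer and inner cells. The comparison asked how gene expression differs between the 2 forms of growth. The number of arrays limits the precision.

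Ribosome assembly begins in the nucleolus, where RNA polymerase I transcribes one long precursor that holds several of the ribosomal RNAs. Guided by small nucleolar RNAs, snoRNPs modify the precursor, box C/D particles adding methyl groups and box H/ACA particles making pseudouridine. A large early particle, the small subunit processome, folds and cuts the part that becomes the small subunit, while other factors mature the large subunit, and late factors accompany each to the cytoplasm. Assembly factors leave the finished ribosome, unlike ribosomal proteins, and their demand follows the growth of the cell.

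Of the 38 factors tested, 33 were lower in spheroids and 0 were higher (limma, Benjamini-Hochberg adjusted p under 0.05 over all 8721 genes). Across all genes tested, 20.6% were called lower and 19.0% higher by the same rule. The median log2 difference, spheroid minus monolayer, was -0.75 over the 38 factors and -0.03 over all genes tested. In 33 of the 38, both spheroid arrays lay below both monolayer arrays, an arrangement found in 36.6% of all genes. In 1 factor, NOB1, both spheroid arrays lay above both monolayer arrays, and in 4 the groups overlapped. Of all 8721 genes, 2909 had both spheroid arrays above, and in 2617 the groups overlapped. The log2 differences ran from -1.24 for MRTO4 to 0.18 for NOB1, and 8 factors were at least 2-fold lower on this scale. Without spheroid replicate 1 the median of the factors was -0.65, against -0.035 over all genes tested. The methods' t-test with Benjamini-Hochberg adjustment takes each gene's spread from its own 4 arrays. It called 0 of the 38 and 2 of all 8721 genes. At an unadjusted p under 0.05 the methods' t-test called 23 factors lower and 1 higher, and limma called 0 higher.

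By role, 16 of 18 small-subunit factors were called lower, with a median log2 difference of -0.82. All 11 large-subunit factors tested were called lower, with a median of -0.91. With the mean of probe sets, 9 of the 11 were called lower (19.5% of all genes). Their median was then -0.74, against -0.82 for small-subunit factors. The count was also 9 with no signal filter (6.66% of all genes). Of the 5 snoRNP proteins tested 4 were called lower, with a median of -0.53, and of the 4 nucleolar factors 2 were, with a median of -0.39. All 8 of the decreases of at least 2-fold were in the subunit factors, 4 in each subunit. The median signal over the 4 arrays was 11371 units for snoRNP proteins and 23078 for nucleolar factors, against 2467 for small-subunit and 3444 for large-subunit factors. Signal also depends on the probes, so these values describe the measurement and do not rank amounts of RNA between genes. The difference between role groups was not tested.

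**Figure D1:**
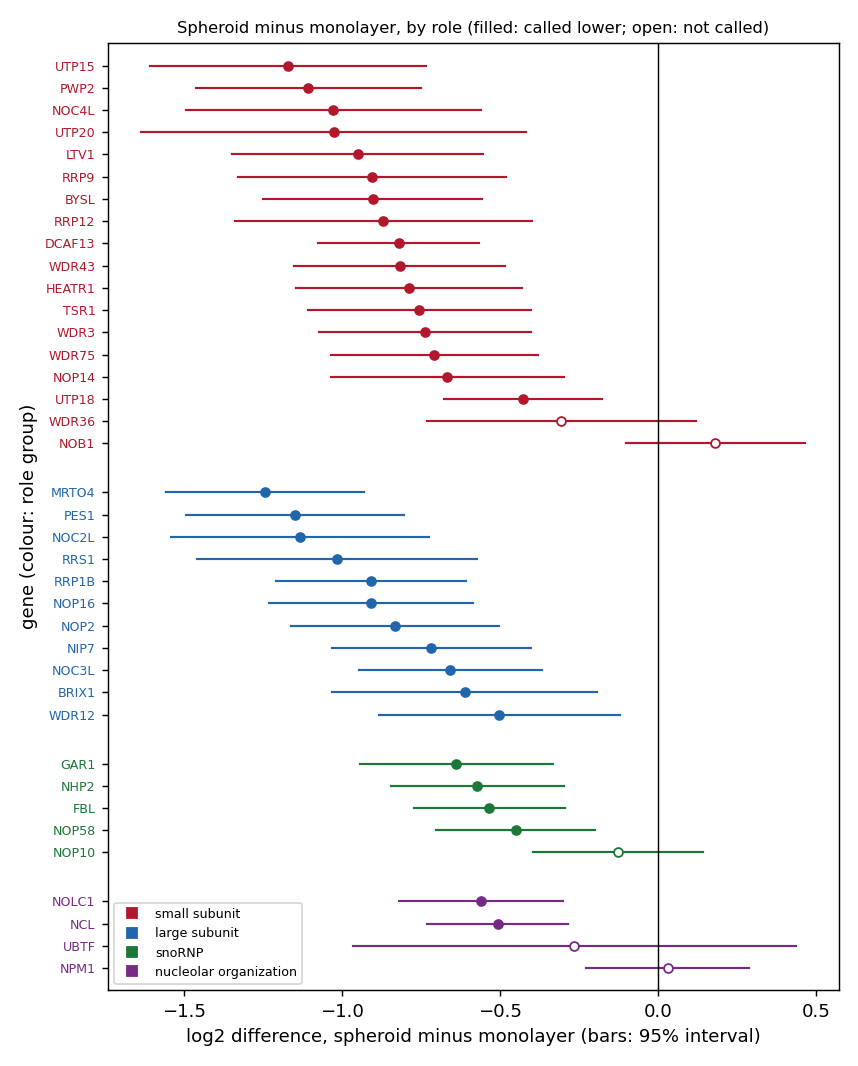
Log2 difference between spheroid and monolayer arrays for each of the 38 factors tested (points) with its 95% confidence interval (bars), grouped and coloured by role. Filled points are the 33 factors called lower. The 5 open points, NOB1, WDR36, NOP10, UBTF and NPM1, have intervals that include 0, and NOB1 and NPM1 lie below 0 when arrays are scaled to the Bacillus spike-ins.

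Each array had been scaled to a trimmed mean of 500.1 units, and between 27.5% and 30.04% of probe sets exceeded 300 units. The ratio of 3′ to 5′ signal of ACTB, a measure of RNA integrity, was 2.82 and 3.003 in spheroids, against 2.64 and 2.34 in monolayers. The same ratio of GAPDH went the other way, with 0.93 and 0.92 in spheroids, against 1.07 and 1.02 in monolayers. The part of RNA integrity in the results was not tested. The Bacillus control transcripts, added to the RNA before labelling, were 1.82-fold brighter in spheroids. The mean log2 signal of these transcripts was 10.68 and 10.12 in spheroids, so the 2 spheroid arrays differed, and 9.45 and 9.62 in monolayers. Scaling to them instead moved the median of all genes to -0.87 and that of the factors to -1.60, and called 37 of the 38 factors lower, against 45.8% of all genes. The MAS5 scaling removes any change in total mRNA, and in bulk RNA fewer cells that express a gene cannot be told apart from less RNA in each cell. The epithelial markers EPCAM (25873 to 29021 units), KRT8, KRT18, KRT19 and CDH1 were above the filter of 300 units in all 4 arrays, while the colon markers VIL1 and CDX2 stayed at or below 147 units. Of 8 markers of leukocytes, endothelium and fibroblasts, 7 stayed at or below 199 units on each array. The eighth, COL1A1, read 2222 and 2659 units in spheroids and 869 and 658 in monolayers, with the fibroblast markers COL1A2 and PDGFRB at or below 53.4 units.

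The promoters of these genes were searched for 3 short sequences, and each was in a larger share of them than of all promoters, as a description with no test. The first was CACGTG, the E-box that MYC with MAX and other basic helix-loop-helix factors can bind, and its letters read the same on both strands. Promoter windows from 250 bases before to 50 bases after the start site, taken from RefSeq (GRCh38.p14), were matched for 37 of the 44 genes. BOP1, DCAF13, NOLC1, NOP58, RRP12, RRP1B and RRS1 were the others. An E-box lay in 15 of the 37 windows (40.5%), against 808 of 7318 windows of genes tested (11%) and 7.43% of all 27305 windows in the table. Among the further assembly genes, which are not in the 44, it lay in 18 of 64 windows (28.1%). It was present in 8 of 16 small-subunit windows, 5 of 12 large-subunit windows, 2 of 6 snoRNP windows and 0 of 3 nucleolar windows. Among the factors called lower it lay in 13 of 27 windows (48.1%), and among those not called in 1 of 5, that of NOP10. In all genes called lower the share was 12.8%, against 9.49% in all genes called higher.

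The E-boxes of these genes clustered at the start site. In 11 of the 37 windows (29.7%) an E-box began within the first 50 transcribed bases, against 95 of 7318 windows of genes tested (1.3%) and 0.912% of all windows. From 250 to 51 bases before the start, the share was 8.11% for the factors and 6.98% for genes tested. The first base of the E-box, counted from 1 at the RefSeq start site, was 2 in PWP2, 4 in WDR43, 5 in UTP18, 7 in FBL, 14 in PES1, 15 in MRTO4, 16 in NOP14, 20 in NOC3L, 29 in both BYSL and LTV1, and 36 in NOP2. RRP9, UTP20 and NOP10 held one just upstream of the start, at -5, -10 and -11. The start site in these cells was not measured. The 4 factors with an E-box and the largest decreases are shown over the 120 bases from position -90 to position 30, with the E-box in capitals, so that its place can be compared between genes of both subunits.
MRTO4, chr1:19251715-19251834, plus strand: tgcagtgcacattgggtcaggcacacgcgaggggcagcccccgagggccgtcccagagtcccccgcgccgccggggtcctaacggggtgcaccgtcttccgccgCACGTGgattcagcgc
PES1, chr22:30591881-30592000, minus strand: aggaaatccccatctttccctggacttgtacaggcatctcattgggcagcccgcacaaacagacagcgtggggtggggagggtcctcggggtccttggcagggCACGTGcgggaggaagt
PWP2, chr21:44107309-44107428, plus strand: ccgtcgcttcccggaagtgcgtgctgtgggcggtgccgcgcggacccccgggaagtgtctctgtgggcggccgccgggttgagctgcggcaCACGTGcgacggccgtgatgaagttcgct
UTP20, chr12:101280015-101280134, plus strand: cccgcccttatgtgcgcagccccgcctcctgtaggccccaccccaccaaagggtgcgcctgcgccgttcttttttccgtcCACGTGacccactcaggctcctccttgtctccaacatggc
Both other motifs searched were counted on both strands in the full windows. The ETS core CCGGAAG lay in 15 of the 37 (40.5%), against 43.8% of the further assembly genes, 22.1% of genes tested and 10.7% of all windows. Like the E-box, it lay in 13 of 27 windows of factors called lower (48.1%), and in 2 of 5 of those not called. In all genes called lower its share was 27%, against 14.1% in all genes called higher, a wider gap than for the E-box. The GC box GGGCGG lay in 31 of the 37 (83.8%), against 54.7% of the further assembly genes, 73.2% of genes tested and 44.6% of all windows. Its share was 69.2% in all genes called lower and 73.7% in all genes called higher. These are matches of letters, and binding was not measured.

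**Figure D2:**
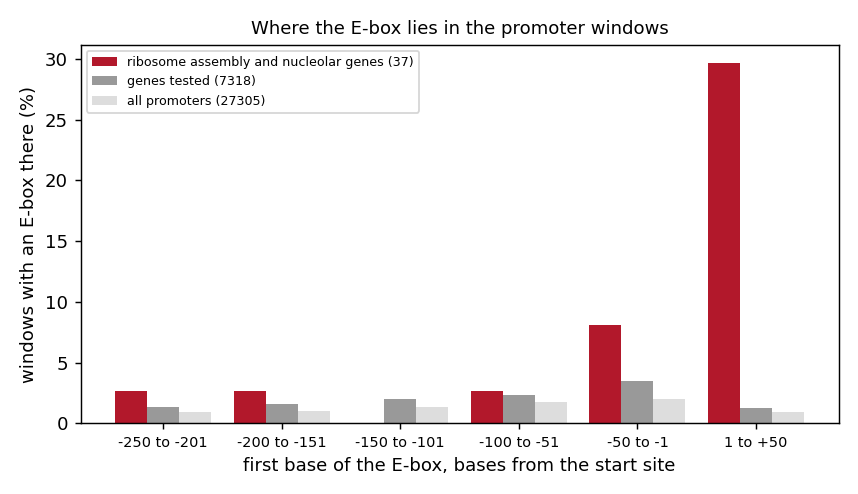
Share of promoter windows (percent) with an E-box that begins in each 50-base stretch, by distance in bases from the RefSeq start site, for ribosome assembly and nucleolar genes (red, 37 windows), genes tested (dark grey, 7318) and all promoters (light grey, 27305). The first 50 transcribed bases hold an E-box in 29.7% of the red windows, against 1.3% of the genes tested.

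Among small-subunit factors, the complex that binds the nascent precursor first (UTP-A) has 4 of its genes in the set, UTP15, WDR43, HEATR1 and WDR75, and all 4 were called lower. UTP15 read 737 and 1038 units in spheroids, against 1885 and 2143 in monolayers. It had the largest decrease of the small-subunit factors, at -1.17 ± 0.20 (log2 difference ± SE, n = 2 arrays a group; limma adjusted p = 0.000714). WDR43 differed by -0.82, HEATR1 by -0.79 and WDR75 by -0.71, and in each of the 4 spheroid replicate 1 was the lower of the 2 spheroid arrays.

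The UTP-B complex, another building block of the processome, has PWP2, WDR3, UTP18 and WDR36 in the set. The E-box of PWP2 began at base 2, counted from 1 at the RefSeq start site. PWP2 read 1177 and 1287 units in spheroids, against 2630 and 2747 in monolayers (-1.11 ± 0.16, limma adjusted p = 0.000269). The replicates of each growth form were close together, and the mean monolayer signal was 2.18 times the mean spheroid signal. WDR3 was lower by a log2 difference of -0.74. UTP18 gave a bright signal and moved less, with 10242 and 10488 units in spheroids, against 13586 and 14326 in monolayers (-0.43 ± 0.12, limma adjusted p = 0.0112). UTP18 no longer passed the test when spheroid replicate 1 (-0.41) or spheroid replicate 2 (-0.44) was left out. Of these 4, WDR36 was not called. It read 1138 and 1470 units in spheroids and 1429 and 1805 in monolayers, so the groups overlapped, and the 95% interval of its difference ran from -0.73 to 0.12 (limma adjusted p = 0.24). A second, dimmer probe set of WDR36 was called lower, at -0.91. The other UTP-B genes measured, TBL3 (-0.50, limma adjusted p = 0.0676) and UTP6 (-0.33, limma adjusted p = 0.276), were not called either.

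Other processome components were lower as well. NOC4L, which in yeast pairs with NOP14, read 550 and 475 units in spheroids, against 1221 and 946 in monolayers (-1.03 ± 0.22, limma adjusted p = 0.00255). NOP14 differed by -0.67, and without monolayer replicate 1 it was no longer called (-0.60). UTP20, a very large protein of the processome, had the lowest signal of the factors tested, with 188 and 328 units in spheroids, against 560 and 525 in monolayers (-1.03 ± 0.28, limma adjusted p = 0.0117). Both spheroid values lay below both monolayer values, but the 2 spheroids differed widely, and without spheroid replicate 1 the difference was -0.67 and the call was lost. RRP9, the protein specific to the U3 small nucleolar RNA particle, differed by -0.91, and DCAF13, whose yeast counterpart is Sof1, by -0.82.

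Late small-subunit factors, which act on the particle as it leaves the nucleus, were lower with one exception. LTV1 differed by -0.95, BYSL by -0.90, RRP12 by -0.87 and TSR1 by -0.76. A second, dimmer probe set of RRP12 differed by -0.30, with overlapping groups, and was not called. The call of RRP12 was lost without monolayer replicate 2 (-0.70). TSR1 was read differently by its 4 probe sets: the 2 that gave -0.76 and -1.07 were called lower, and the 2 at -0.01 and -0.04 were not called. NOB1, the endonuclease that makes the last cut at the 3′ end of the small-subunit RNA, was the exception. It read 5852 and 5805 units in spheroids and 5180 and 5084 in monolayers, the only factor with both spheroid arrays above both monolayer arrays. Its difference of 0.18 ± 0.13 did not pass the test (limma adjusted p = 0.294, 95% interval -0.10 to 0.47), and it was -0.68 with Bacillus spike-in scaling.

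**Figure D3:**
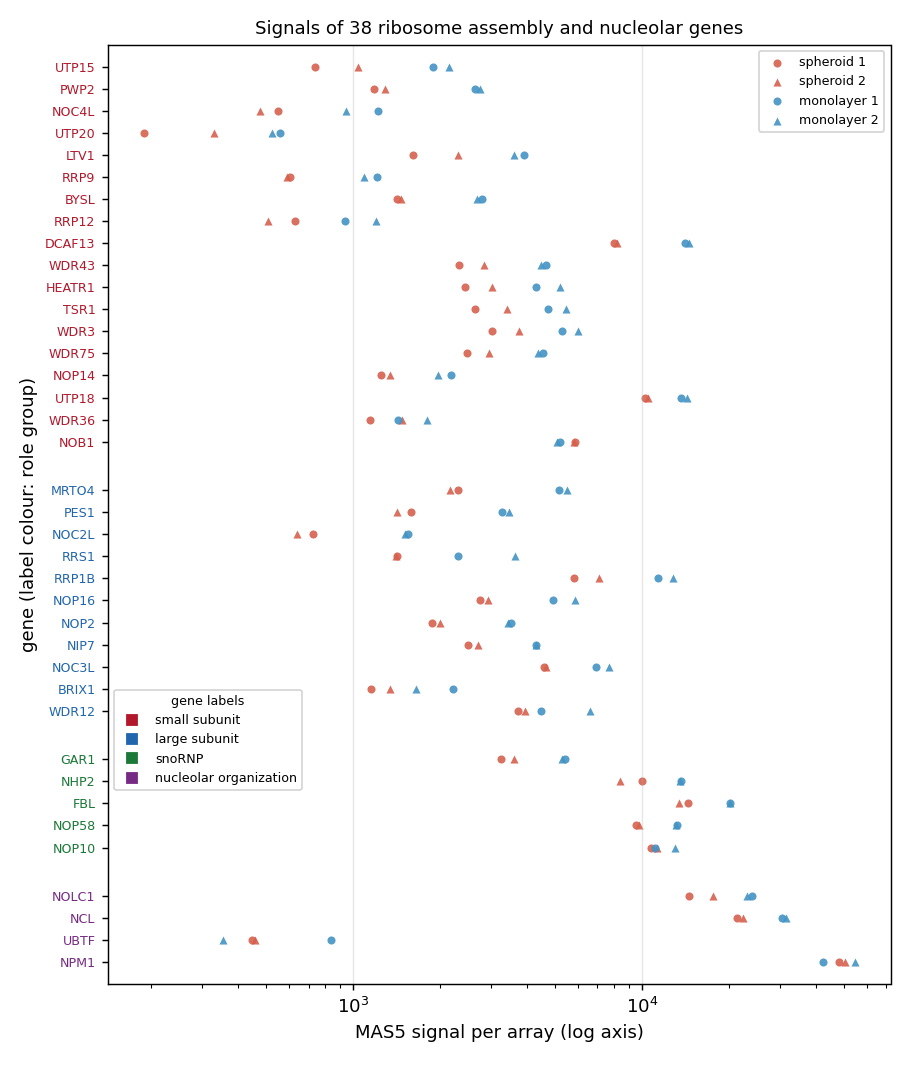
MAS5 signal (log axis) of the 38 factors on each of the 4 arrays, spheroids in red and monolayers in blue, with circles for replicate 1 and triangles for replicate 2. Red and blue points do not mix for 34 of the 38 genes, and of these only NOB1 has the spheroid points on the right, an order that turns with Bacillus spike-in scaling. Of all 8721 genes tested, 3195 have both spheroid arrays below, 2909 have both above, and in 2617 the groups overlap.

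Large-subunit factors gave the largest decrease, and under the main settings no gene was without a call. MRTO4, a nucleolar relative of the ribosomal stalk protein that holds its place on the immature large subunit, read 2306 and 2164 units in spheroids, against 5161 and 5507 in monolayers. Its difference was -1.24 ± 0.14 (limma adjusted p = 5.2e-05), and a second probe set gave -1.34. The mean monolayer signal was 2.39 times the mean spheroid signal. PES1, of the PES1, BOP1 and WDR12 complex that processes large-subunit RNA, read 1578 and 1422 units in spheroids, against 3269 and 3451 in monolayers (-1.15 ± 0.16, limma adjusted p = 0.000161). In both genes, whose E-boxes began at bases 15 and 14, replicates were close and the groups lay far apart.

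WDR12, the partner of PES1, had the smallest decrease of the group. It read 3710 and 3933 units in spheroids, against 4472 and 6574 in monolayers (-0.50 ± 0.18, limma adjusted p = 0.0382). The 2 monolayers differed more from each other than the lower one did from the spheroids, and the call was lost without spheroid replicate 1 (-0.46), spheroid replicate 2 (-0.54) or monolayer replicate 2 (-0.23). It was also lost with the mean of its probe sets (-0.25), with quantile normalization (-0.39), and with no signal filter, no intensity trend or no probe sets that may match several transcripts. A second, dimmer probe set of WDR12 differed by 0.00 and was not called. BOP1, the third protein of the complex, had only probe sets shared between several symbols and was not analysed.

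NOC2L and NOC3L are nucleolar proteins whose yeast counterparts pair on the early large subunit. NOC2L read 724 and 637 units in spheroids, against 1550 and 1505 in monolayers (-1.13 ± 0.19, limma adjusted p = 0.000563). A second probe set of NOC2L, at -0.20, was not called. NOC3L was lower by -0.66. RRS1, which in yeast helps to place a small ribosomal RNA into the large subunit, read 1419 and 1408 units in spheroids, against 2305 and 3622 in monolayers (-1.02 ± 0.20, limma adjusted p = 0.00198). The spheroid arrays of RRS1 were nearly equal, and the spread lay in the monolayers.

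The remaining large-subunit factors also fell. NOP2, an RNA cytosine methyltransferase, differed by -0.83, NOP16 by -0.91, RRP1B by -0.91, NIP7 by -0.72 and BRIX1 by -0.61. Second probe sets of NOP16 (-1.17) and NIP7 (-0.77) were also called lower, while that of RRP1B, at 0.27, was not called. BRIX1 was the weakest of these (limma adjusted p = 0.0243), and its call was lost without spheroid replicate 1 (-0.50) or monolayer replicate 1 (-0.40).

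Of the 5 snoRNP proteins tested, 4 fell, by log2 differences of -0.45 to -0.64. FBL (fibrillarin), the methyltransferase of box C/D particles, read 14452 and 13360 units in spheroids, against 20085 and 20158 in monolayers (-0.53 ± 0.11, limma adjusted p = 0.00243). NOP58, a core protein of the same particles, read 9501 and 9713 units in spheroids, against 13212 and 13059 in monolayers (-0.45 ± 0.12, limma adjusted p = 0.00858). Leaving out spheroid replicate 1 (-0.43) ended the call of NOP58. In both genes the 2 arrays of each growth form were close together and did not overlap with the other form.

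Of the box H/ACA proteins, 2 of the 3 tested were called. GAR1 read 3254 and 3608 units in spheroids, against 5419 and 5278 in monolayers (-0.64 ± 0.14, limma adjusted p = 0.00347). NHP2 read 9951 and 8353 units in spheroids, against 13583 and 13542 in monolayers (-0.57 ± 0.13, limma adjusted p = 0.00358). NOP10, the smallest protein of the particle, read 10740 and 11207 units in spheroids and 11069 and 12955 in monolayers. The groups of NOP10 overlapped, and its difference of -0.13 (95% interval -0.40 to 0.14, limma adjusted p = 0.452) did not pass the test. DKC1 (dyskerin), the pseudouridine synthase itself, and NOP56, of the box C/D particle, had only probe sets shared between several symbols and were not analysed.

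The 4 nucleolar factors were divided. NCL (nucleolin), one of the most abundant nucleolar proteins, read 21211 and 22356 units in spheroids, against 30575 and 31369 in monolayers (-0.51 ± 0.10, limma adjusted p = 0.00204). NOLC1, a chaperone that shuttles between nucleolus and cytoplasm, read 14509 and 17535 units in spheroids, against 24066 and 23005 in monolayers (-0.56 ± 0.12, limma adjusted p = 0.00295). The call of NOLC1 was lost without spheroid replicate 1 (-0.42), although its 2 other probe sets gave -1.02 and -0.95 and were called lower.

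NPM1 (nucleophosmin), a nucleolar chaperone, read 47833 and 50220 units in spheroids and 42235 and 54487 in monolayers, with both spheroid values between the monolayer values. Its difference was 0.03 ± 0.12 (95% interval -0.23 to 0.29, limma adjusted p = 0.856). NPM1 has many processed pseudogenes, and its 3 probe sets did not give one answer. The second read 27311 and 29376 units in spheroids and 31161 and 39816 in monolayers (-0.31, not called), and the third read 14406 and 12354 units in spheroids, against 20211 and 21873 in monolayers (-0.66, called lower). The brightest probe set of NPM1 thus showed the least difference. With Bacillus spike-in scaling the brightest gave -0.83, with quantile normalization -0.15, and the mean of the 3 probe sets was -0.31. NPM1 was called lower with the spike-in scaling (limma adjusted p = 0.0482) and with the mean of its probe sets (limma adjusted p = 0.0472).

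UBTF, the transcription factor that opens ribosomal DNA for RNA polymerase I, was dim and poorly measured. It read 448 and 456 units in spheroids and 839 and 355 in monolayers, so the spheroids lay between the monolayers. The interval of its difference of -0.26 ran from -0.96 to 0.44 (limma adjusted p = 0.547). Leaving out monolayer replicate 1 gave 0.32, and leaving out monolayer replicate 2 gave -0.85 with a call. A second probe set read 434 and 288 units in spheroids and 651 and 535 in monolayers (-0.69, not called).

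Over all second probe sets, 19 in 14 of the genes were above the filter, and 11 were called lower, 8 were not called and 0 were higher in a fit over 14162 probe sets. The size of a decrease varied with brightness. Across the 38 factors, brighter genes had differences nearer to 0 or above it (Spearman's rho = 0.55 between mean signal and log2 difference). Across all genes tested rho was -0.19, and across the 1799 genes called lower it was 0.32. The standard error was 0.10 for the bright NCL and 0.28 for the dim UTP20, so smaller decreases can be called in bright genes. The value of 0.32 is therefore no baseline for the factors. Genes on the same arrays are not independent, and no test was made. DCAF13, with 7959 and 8202 units in spheroids and 14103 and 14485 in monolayers, and RRP1B, with 5791 and 7087 units in spheroids and 11331 and 12809 in monolayers, were bright factors with large decreases.

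The 2 spheroid cultures were not equal in these genes. In 28 of the 38 factors spheroid replicate 1 was lower than spheroid replicate 2, with a median log2 difference of -0.08 between them, while over all genes tested that median was 8.1e-05. Of these 28 factors 14 were small-subunit factors, of which 14 of 18 were lower in replicate 1 with a median of -0.19, and all 4 nucleolar factors were lower in replicate 1. In the monolayers, 20 of the 38 were lower in replicate 1. The correlation of log2 signals over all genes was 0.979 between spheroids, 0.984 between monolayers and 0.889 to 0.902 between the growth forms.

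**Figure D4:**
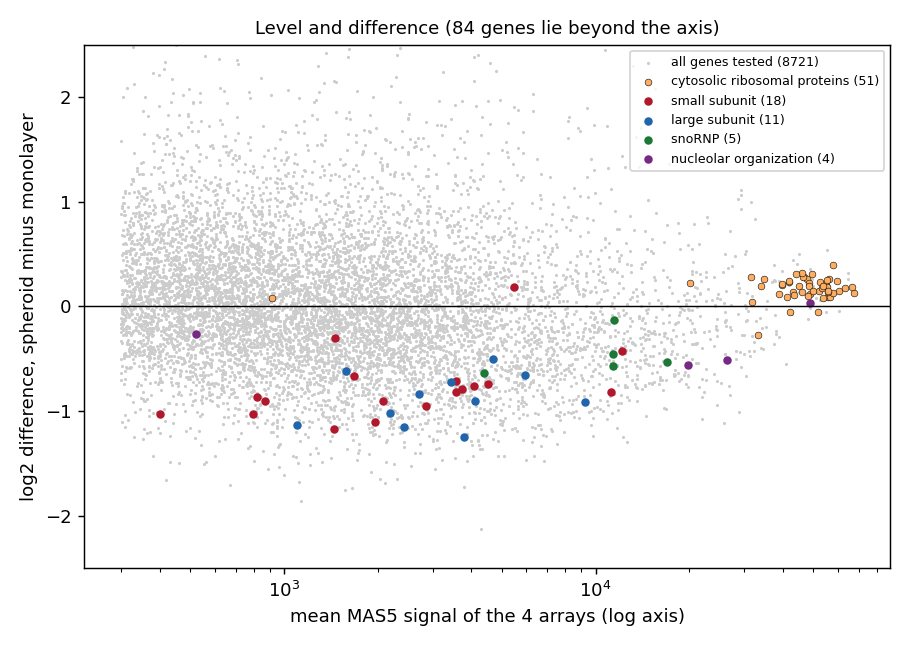
Log2 difference between spheroid and monolayer arrays against mean MAS5 signal of the 4 arrays (log axis). Grey points are the 8721 genes tested (84 lie beyond the axis), coloured points the 38 factors by role, and orange points the 51 cytosolic ribosomal proteins. Most factors lie below 0 at middle signals, and the ribosomal proteins lie at the bright end with a median of 0.19, which is 0.02 with quantile normalization, 0.097 without monolayer replicate 1 and -0.68 with Bacillus spike-in scaling.

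Decreases were also frequent among other assembly genes, a list likewise made with earlier results of these data known. Of 72 further assembly genes tested, from a list of 74, 43 (59.7%, against 20.6% of all genes) were called lower and 0 higher, 69 had a negative difference, and the median was -0.62. At an unadjusted p under 0.05, limma and the methods' t-test likewise called 0 higher. These were 18 of 27 small-subunit genes, 16 of 28 large-subunit genes and 9 of 17 nucleolar and snoRNP genes. The largest decreases were in EMG1, an RNA methyltransferase of the small subunit, with 3174 and 3064 units in spheroids, against 7356 and 10271 in monolayers (-1.47 ± 0.16, limma adjusted p = 3.8e-05). FTSJ3, a methyltransferase of precursor RNA, read 1523 and 1910 units in spheroids, against 4326 and 4513 in monolayers (-1.36 ± 0.16, limma adjusted p = 6.3e-05). TCOF1 (treacle), a partner of RNA polymerase I, read 476 and 339 units in spheroids, against 1016 and 1015 in monolayers (-1.27 ± 0.23, limma adjusted p = 0.0009). In all 3 the groups did not overlap.

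The proteins of the finished cytosolic ribosome gave other counts. Of 51 cytosolic ribosomal protein genes, 1 was called lower (FAU, -0.27), 8 were called higher and 42 were not called, against 20.6% lower and 19.0% higher over all genes. The share called higher was 15.7%. Their median was 0.19, or 0.02 with quantile normalization, -0.68 with Bacillus spike-in scaling, 0.097 without monolayer replicate 1 and 0.26 without monolayer replicate 2. The largest increase was 0.39, in RPL31. Their median signal was 48420 units, against 3655 for the 38 assembly factors. Of 75 mitochondrial ribosomal protein genes, which serve a separate ribosome, 53 (70.7%) were called lower and 0 higher, with a median of -0.61. Both lists are set beside the assembly factors as counts and medians, and the difference between lists was not tested.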

How the data were processed

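Total RNA of 2 spheroid and 2 monolayer cultures of HCT116 cells, described by the authors as independent cultures, was labelled with biotin, and each culture was hybridized to its own Affymetrix expression array. The deposited values are linear MAS5 signal intensity per probe set, which the authors scaled to a common mean. No source used here names the MAS5 version. Of 54675 probe sets, 62 were controls, 41091 had 1 gene symbol in the platform annotation, 1801 had several and 11721 were not listed. Genes were named from probe sets with 1 symbol, and matching to RefSeq (GRCh38.p14) changed 0 symbols.

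The genes of interest and all lists were chosen with earlier results of these data known, and the list of ribosomal proteins, by symbol pattern, was made once the values had been seen. Tests were run on log2(signal + 32), where differences of genes with a low signal come out too small. A mean above 300 units was required, and each gene was read from its brightest probe set. Growth forms were compared with limma 3.58.1 (R 4.3.3), with lmFit and a trended eBayes, two-sided, with Benjamini-Hochberg adjustment over 8721 genes, checked on simulated data. Residual degrees of freedom were 2 and prior ones 10.5, and the median standard error was 0.19. The adjusted p of a second probe set came from a fit over 14162 probe sets.

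Signals of each array are given for the 4 largest differences in a role group, for all genes of groups of up to 7, for any gene higher in spheroids, and for each factor not called. The signals of UTP18, WDR12, DCAF13 and RRP1B were added with their values known. Motifs were counted as exact letters. The alternatives tried were other constants, filters, scalings, probe set choices and tests, a replicate block, and leaving out each array. For the spike-in scaling, 24 probe sets of dap, lys, phe and thr were used, and trpn was left out because its probe sets were at background.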

Additional observations from a re-analysis of the deposited data

How the results depend on the processing

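Of the 38 factors, 30 were called lower with no signal filter (6.66% of all genes) and 30 with no intensity trend (17.5%). The count was 32 with quantile normalization (20.3% of all genes) and 37 with Bacillus spike-in scaling (45.8%). When 1 array was left out, the median of the factors ran from -0.84 to -0.65, against -0.05 to -0.01 over all genes. Without probe sets that may match several transcripts the count was 21 of 28 tested. These were 10 of 13 small-subunit, 8 of 10 large-subunit, 2 of 3 snoRNP and 1 of 2 nucleolar factors. In that setting 27 of 49 further assembly genes and 18.3% of all genes were called lower. Student's t-test with Benjamini-Hochberg adjustment called 0 in each list and 0 further assembly genes, and 1 lower and 1 higher of all genes. Unadjusted, it called 23 factors lower, 10 of them small-subunit and 1 nucleolar, and 1 factor higher, against 16.4% of all genes called lower. With Bacillus spike-in scaling all 4 nucleolar factors and 66 further assembly genes were lower, the factors' median was -1.60, and 95.6% of all calls were decreases, against 52.1% otherwise. Leaving out 1 array moved the calls of nucleolar factors in both directions and could bring a further assembly gene to a call of higher. Spike-in scaling turned NOB1 to -0.68, NPM1 to -0.83 and the ribosomal protein median to -0.68. NPM1 was -0.15 with quantile normalization, -0.31 as the mean of its probe sets and -0.15 to 0.21 when 1 array was left out, and UBTF was -0.85 to 0.32. The replicate block called 33 factors and 56 further assembly genes lower, against 43 of the latter without it. The share of all genes called lower was 26.4% with the block and 20.6% without it. The labels do not say that replicate numbers pair cultures, and there are only 2 pairs. The log2 difference between replicates 1 and 2 correlated between the growth forms with r = 0.32 over all genes and r = 0.03 over the factors. The call of RRP1B was lost with the mean of probe sets (-0.32), and those of TSR1 (-0.04) and NOC2L (-0.20) without probe sets that may match several transcripts. Averaging its probe sets brought WDR36 to -0.61 and a call. The cause was not tested in any of these. Dim factors limit the depth: UTP20 and UBTF lay nearest to the filter.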

Other observations

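The arrays carry control probe sets for ribosomal RNA itself, which labelling from the poly(A) tail picks up only in part. For the 3′ probe set of the small-subunit RNA the signal was 1488 and 696 units in spheroids, and 3483 and 532 units in monolayers. For the middle probe set of the large-subunit RNA it was 10356 and 3828 units in spheroids, and 11664 and 4090 units in monolayers. In both growth forms replicate 1 was the brighter array, and the groups overlapped.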
